A study of Mus musculus with 40 samples.

Results

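Early neuron genes are the genes that a neural progenitor switches on as it leaves the cell cycle and begins to extend an axon. The set described here held 10 genes, chosen by name, out of 26411 genes in the count tables of whole mouse embryos at embryonic day (E) 9.5. All 10 passed the filter on low counts that left 14183 protein-coding genes. By role, *Adgrb1*, *Apba2*, *Gprin1* and *Cacna1g* encode proteins of membrane signalling and are called the signalling genes below, and *Stmn2*, *Stmn3*, *Elavl3*, *Elavl4*, *Dcx* and *Mapt* encode cytoskeletal and RNA-binding proteins. The choice drew on the difference between *Kat6a-/-* and wild-type (WT) embryos, so that difference is given below as a description and not as a test.

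The study compared loss of the proteins KAT6A and KAT6B with loss of their acetyltransferase activity. Bulk RNA-sequencing was done on 24 male embryos on a C57BL/6 background, 4 of each of 6 genotypes, from 17 litters. WT embryos carried wild-type alleles of both genes. *Kat6a-/-* and *Kat6b-/-* embryos were homozygous for a null allele that lacks part of the exons (written cfd/cfd for *Kat6a* and dec/dec for *Kat6b* in the labels), and carried wild-type alleles of the other gene. *Kat6aE/E* and *Kat6bE/E* embryos were homozygous for a glycine-to-glutamate substitution in the acetyltransferase domain, written G656E for *Kat6a* and G577E for *Kat6b* in the labels, and *Kat6aE/E;Kat6bE/E* embryos were homozygous for both. All alleles were carried in every tissue from conception, so a change in a neuron gene need not have arisen in neurons. Embryos had been selected for similar outward appearance.

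KAT6A and KAT6B are histone acetyltransferases of the MYST family that work within a complex with BRPF proteins at active promoters, and a winged helix domain in each binds CG-rich DNA. At E9.5 the neural tube consists mostly of dividing progenitors that express *Sox2* and *Nes*, while the first motor neurons, hindbrain neurons and cranial sensory neurons have just formed. Stathmins, ELAV-like proteins, doublecortin and tau are standard markers of such newly formed neurons. Such neurons are a small share of the cells of the embryo. In RNA from a whole embryo, fewer neurons and less RNA per neuron cannot be told apart.

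For the members with an entry in the RefSeq promoter table (GRCm38.p6, 6 of 10), the 250 bases before a transcription start were read. The promoters of a pair of signalling genes and a pair of cytoskeletal and RNA-binding genes are printed 5′ to 3′ on the strand of the gene, with each CG dinucleotide in capitals, because CG is the letter pair that the winged helix domain reads.
Apba2 (chr7:64501456-64501705, plus strand): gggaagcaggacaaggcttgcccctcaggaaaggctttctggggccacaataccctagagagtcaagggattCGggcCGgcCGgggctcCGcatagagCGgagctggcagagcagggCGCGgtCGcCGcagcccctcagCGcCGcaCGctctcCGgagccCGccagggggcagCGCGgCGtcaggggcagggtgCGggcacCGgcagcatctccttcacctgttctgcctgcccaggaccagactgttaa
Gprin1 (chr13:54749875-54750124, minus strand): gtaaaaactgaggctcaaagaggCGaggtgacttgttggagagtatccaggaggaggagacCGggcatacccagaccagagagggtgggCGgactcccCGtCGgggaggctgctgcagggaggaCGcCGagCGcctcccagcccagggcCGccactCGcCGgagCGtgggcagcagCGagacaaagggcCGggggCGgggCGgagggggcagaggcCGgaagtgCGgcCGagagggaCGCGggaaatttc
Elavl3 (chr9:22052024-22052273, minus strand): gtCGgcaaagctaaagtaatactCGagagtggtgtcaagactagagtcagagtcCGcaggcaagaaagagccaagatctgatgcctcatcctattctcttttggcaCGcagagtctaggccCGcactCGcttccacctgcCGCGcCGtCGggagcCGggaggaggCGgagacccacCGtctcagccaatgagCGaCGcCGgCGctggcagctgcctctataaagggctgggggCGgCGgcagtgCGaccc
Dcx (chrX:143933220-143933469, minus strand): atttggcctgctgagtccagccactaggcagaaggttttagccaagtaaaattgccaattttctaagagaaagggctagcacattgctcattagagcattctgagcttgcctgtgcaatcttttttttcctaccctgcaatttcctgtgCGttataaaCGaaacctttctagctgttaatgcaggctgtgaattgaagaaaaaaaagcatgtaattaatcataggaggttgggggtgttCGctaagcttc
The windows shown held 19 CG in *Apba2*, 21 in *Gprin1*, 20 in *Elavl3* and 3 in *Dcx*, beside a median of 6 over 32841 promoters of the same length. At least as many CG as in *Gprin1* were found in 16.4% of all promoters and as in *Apba2* in 19.7%. A second start site of *Apba2* had 38 CG, as many as in 1.88% of promoters, whereas the start site of *Stmn3* had 3 and the 4 start sites of *Elavl4* had between 3 and 14. CG-rich and CG-poor windows both occurred among the cytoskeletal and RNA-binding genes. The E-box letters CAGCTG (the same on both strands) and CAGATG, of the kind bound by proneural factors, were searched on both strands. They stood in 5 of the 11 member promoters, namely of *Stmn3*, *Elavl3* and *Elavl4*, and in 25.5% of all promoters. The windows of *Elavl4* start sites 2 and 3, both with such letters, overlap, as do those of *Dcx*, which had none. The 5 and the 11 are therefore not counts of separate sequences. *Adgrb1*, *Cacna1g*, *Stmn2* and *Mapt* had no entry.

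In WT embryos the members lay at low to moderate levels. Levels are given as CPM, the read count scaled to a common library total with TMM factors. The means ran from 7.04 ± 2.17 CPM for *Mapt* to 48.1 ± 1.40 CPM for *Cacna1g* (SD, n = 4). The levels of different genes are compared only per kilobase of the gene length in the files. On that scale *Apba2* was at 12.3 ± 0.371 CPM per kb, *Stmn2* at 11.045 ± 3.21, *Elavl3* at 7.30 ± 2.06, *Stmn3* at 6.29 ± 1.99, *Elavl4* at 6.12 ± 1.31 and *Gprin1* at 6.04 ± 0.918. *Cacna1g* followed at 5.85 ± 0.171 CPM per kb, *Adgrb1* at 3.66 ± 0.423, *Dcx* at 2.19 ± 0.872 and *Mapt* at 0.984 ± 0.303. From *Elavl3* to *Cacna1g* each gene differed from the next by less than the larger SD of the pair, and so did *Apba2* from *Stmn2*. The embryos had the defining RNAs of the tissues a whole embryo holds, with *Tubb3* of neurons at 111 ± 28.7 CPM, *Sox2* at 172 ± 11.6 CPM, *Myh6* of the heart at 291 ± 73.6 CPM and the embryonic globin *Hba-x* at 1639 ± 289 CPM in WT. The lowest count of any member in any library was 36, for *Stmn3* in *Kat6a-/-* replicate 1 and for *Mapt* in *Kat6b-/-* replicate 1.

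The totals assigned to genes ranged from 8401990 to 23339359 per embryo, with a median of 15317052.5. The counts for whole genes did not check the genotype labels: *Kat6a* was at 176 ± 8.79 CPM in WT and 166 ± 4.65 CPM in *Kat6a-/-* embryos, and *Kat6b* was at 40.5 ± 2.51 CPM in WT and 54.5 ± 2.75 CPM in *Kat6b-/-* embryos. In *Kat6aE/E;Kat6bE/E* embryos *Kat6b* was at 42.0, 56.0, 40.7 and 40.7 CPM, and the value of replicate 2 lay within the *Kat6b-/-* range (52.0 to 58.3 CPM). Why replicate 2 departed from its group was not tested. Genotypes were compared with limma, with 4 surrogate variables (axes of variation shared by many genes that genotype does not explain) and litter as a random block. No litter held a WT embryo together with a *Kat6bE/E* or *Kat6aE/E;Kat6bE/E* embryo, so these genotypes were compared with WT only across litters. A gene was called when its false discovery rate (FDR), the p-value adjusted over all 14183 genes, was below 0.05. All comparisons with WT share the same 4 WT libraries, among which replicate 4 was the lowest in 7 of the 10 members.

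*Apba2* encodes the neuronal adaptor MINT2, which binds the amyloid precursor protein and synaptic vesicle proteins. In WT embryos it was at 47.6, 47.4, 44.6 and 46.0 CPM. In *Kat6a-/-* embryos it was at 27.0, 35.3, 27.4 and 32.1 CPM, and in *Kat6b-/-* embryos at 30.5, 36.4, 37.0 and 33.7 CPM. Every null embryo of either gene lay below every WT embryo. The point mutants were closer to WT, with 46.2, 44.1, 40.7 and 38.9 CPM in *Kat6aE/E* and 37.5, 44.7, 44.2 and 40.7 CPM in *Kat6bE/E* embryos, and both ranges overlapped that of WT. With both substitutions, *Kat6aE/E;Kat6bE/E* embryos were at 33.4, 38.9, 33.7 and 27.6 CPM, again below every WT embryo.

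*Gprin1* encodes a G-protein-binding protein of the growth cone that promotes neurite outgrowth. Its WT values were 25.7, 29.9, 23.8 and 20.8 CPM. *Kat6a-/-* embryos had 13.9, 21.3, 13.6 and 14.6 CPM, so that replicate 2 lay within the WT range and the others below it. The range was 16.1 to 19.8 CPM in *Kat6b-/-*, 21.5 to 27.2 CPM in *Kat6aE/E* and 19.5 to 26.2 CPM in *Kat6bE/E* embryos. *Kat6aE/E;Kat6bE/E* embryos, at 17.0, 18.4, 18.1 and 14.8 CPM, lay below all WT embryos, as did those of *Kat6b-/-*.

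*Cacna1g* encodes the pore subunit of a T-type, low-voltage-activated calcium channel. It was among the steadiest members in WT embryos, at 46.0, 48.7, 49.1 and 48.5 CPM. *Kat6a-/-* embryos had 32.8, 39.8, 31.7 and 29.8 CPM and *Kat6b-/-* embryos 30.3, 41.1, 42.6 and 34.1 CPM, with no overlap with WT in either case. *Kat6aE/E* embryos ranged from 43.7 to 51.4 CPM and *Kat6bE/E* embryos from 37.4 to 53.2 CPM, overlapping WT. In *Kat6aE/E;Kat6bE/E* embryos it was at 37.6, 43.2, 33.2 and 37.8 CPM, below WT in all 4.

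*Adgrb1* encodes an adhesion G-protein-coupled receptor, also known as BAI1, that takes part in the uptake of apoptotic cells and in synapse formation. WT embryos had 23.2, 25.6, 23.6 and 19.2 CPM. In *Kat6a-/-* embryos the values were 10.3, 19.8, 13.8 and 13.2 CPM, and again replicate 2 was the highest and overlapped WT. Values ranged from 13.7 to 19.4 CPM in *Kat6b-/-*, from 19.1 to 24.3 CPM in *Kat6aE/E*, from 14.95 to 21.1 CPM in *Kat6bE/E* and from 14.45 to 20.6 CPM in *Kat6aE/E;Kat6bE/E* embryos. All these ranges overlapped WT.

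Of the cytoskeletal and RNA-binding genes, *Stmn2* and *Stmn3* encode stathmins that bind tubulin in growing axons. *Stmn3* was at 9.26, 8.32, 6.94 and 4.07 CPM in WT and at 3.18, 5.64, 3.44 and 3.42 CPM in *Kat6a-/-* embryos. *Stmn2* was at 22.3, 28.1, 20.4 and 13.3 CPM in WT and at 12.2, 20.4, 15.1 and 11.9 CPM in *Kat6a-/-* embryos. For both stathmins WT replicate 4 was the low WT embryo, and it lay inside the range of the null embryos.

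*Elavl3* and *Elavl4* encode the neuronal RNA-binding proteins HuC and HuD, which stabilise mRNAs with AU-rich elements. *Elavl4* had 30.4, 34.0, 28.3 and 19.8 CPM in WT and 13.6, 22.4, 20.6 and 17.3 CPM in *Kat6a-/-* embryos. *Elavl3* had 41.0, 46.4, 37.1 and 22.2 CPM in WT and 16.7, 37.5, 29.3 and 23.8 CPM in *Kat6a-/-* embryos. The groups overlapped for both genes.

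*Dcx* encodes doublecortin, a microtubule-binding protein of migrating neurons, and lies on the X chromosome. It varied most, at 21.4, 28.1, 21.6 and 9.004 CPM in WT, 10.1, 20.5, 15.95 and 10.5 CPM in *Kat6a-/-* and 41.8, 35.6, 18.9 and 16.5 CPM in *Kat6aE/E* embryos. *Mapt* encodes the axonal microtubule-binding protein tau, and had 6.57, 10.2, 5.33 and 6.06 CPM in WT and 6.53, 8.90, 6.96 and 7.68 CPM in *Kat6a-/-* embryos. *Mapt* was the only member whose mean was not below WT in *Kat6a-/-* embryos, at 7.52 ± 1.04 against 7.04 ± 2.17 CPM.

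**Figure D1:**
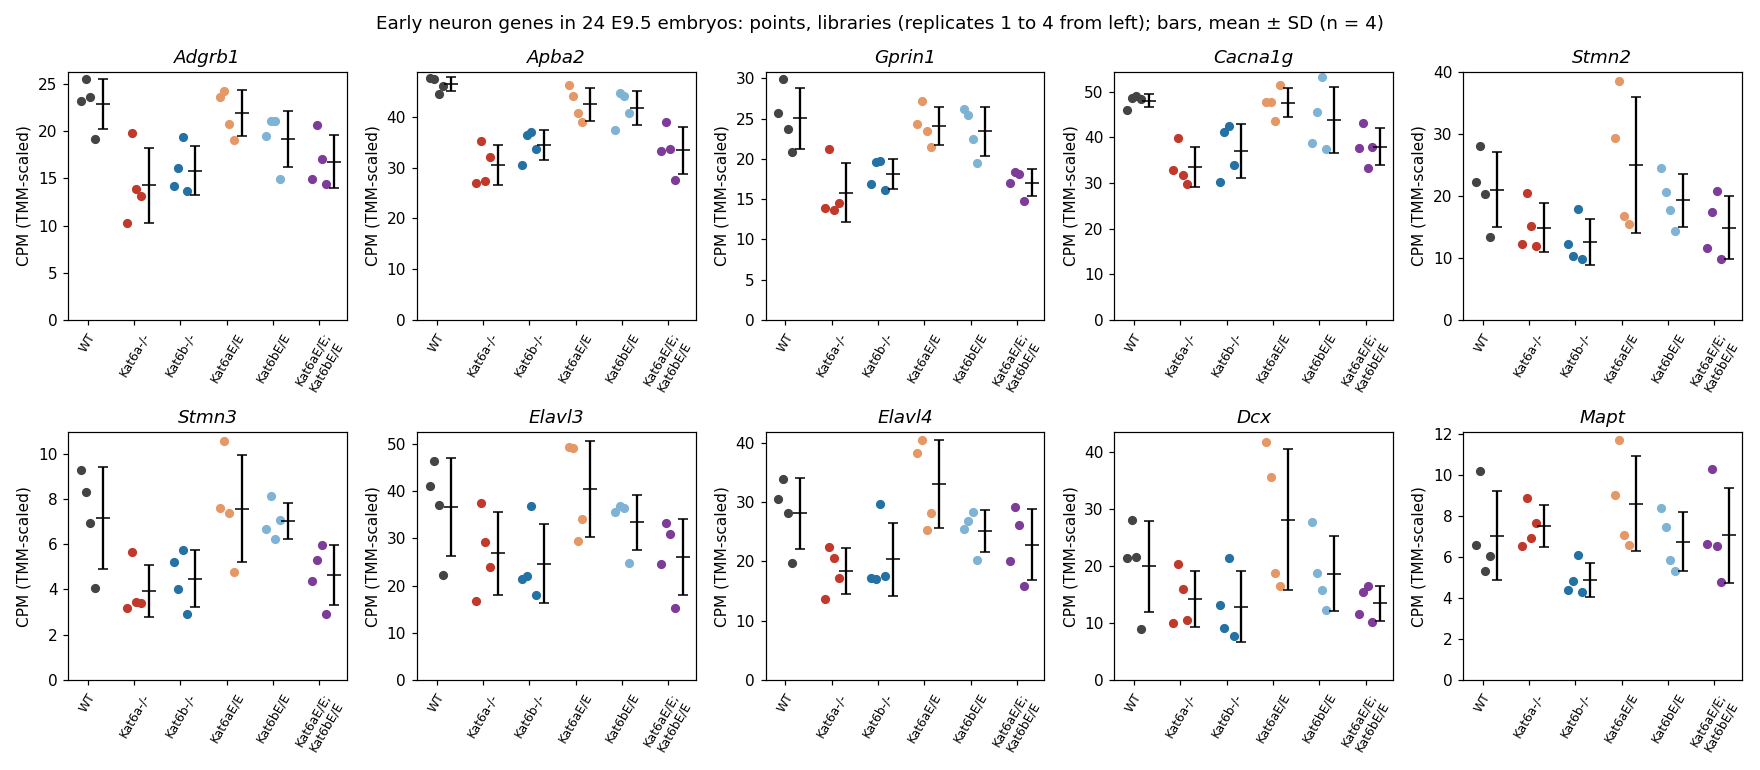
Level of each early neuron gene in 24 E9.5 embryos, in TMM-scaled CPM on a linear axis from 0. Points are single embryos by genotype, replicates 1 to 4 from left to right, and bars are mean ± SD (n = 4). WT embryos of *Apba2* (44.6 to 47.6 CPM) and *Cacna1g* (46.0 to 49.1 CPM) lie close together, while those of *Dcx* spread from 9.004 to 28.1 CPM.

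In *Kat6a-/-* embryos compared with WT embryos, the contrast that guided the choice of genes, the fitted log2 fold change was -0.55 for *Adgrb1*, -0.52 for *Apba2*, -0.62 for *Gprin1* and -0.40 for *Cacna1g*, with SE between 0.07 and 0.09. As shares of the WT level these are decreases of 31.9%, 30.1%, 35.0% and 24.01%. For the cytoskeletal and RNA-binding genes the log2 fold change was -0.83 (SE 0.21) for *Stmn3*, -0.48 (SE 0.12) for *Elavl4*, -0.46 (SE 0.16) for *Stmn2*, -0.44 (SE 0.15) for *Dcx*, -0.30 (SE 0.15) for *Elavl3* and 0.21 (SE 0.16) for *Mapt*. With their larger errors, the 95% intervals of *Elavl3* (-0.61 to 0.01) and *Mapt* (-0.11 to 0.54) spanned 0. The 4 signalling genes, *Stmn3* and *Elavl4* had FDR below 0.05, which makes 6 of 10 where 1.38% of all genes were called lower, but the genes had been chosen with this contrast known. *Apba2* and *Cacna1g*, 2 of 10, did not overlap WT, where 6.49% of all genes were lower without overlap. The median over the 10 genes was -0.47, and over all genes 0.00. The count was 4 without WT replicate 1, 2 or 3 or *Kat6a-/-* replicate 1 or 3, and 5 without *Kat6a-/-* replicate 4, since *Stmn3* or *Elavl4* was no longer called. Without surrogate variables it was 3, namely *Apba2*, *Gprin1* and *Cacna1g*. Within litter 5556, the only litter with both genotypes, the *Kat6a-/-* embryo had 74.3% of the *Apba2* level of its WT littermate, 82.7% for *Gprin1*, 86.6% for *Cacna1g*, 85.4% for *Adgrb1*, 61.0% for *Stmn3* and 135.4% for *Mapt*.

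In embryos without KAT6B, 1 member was called, in a comparison that shares the WT libraries that guided the choice of genes. Compared with WT, the fitted values of all 10 were negative in *Kat6b-/-* embryos, from -0.18 (SE 0.11) for *Elavl4* to -0.44 (SE 0.20) for *Stmn3*, with a median of -0.30 beside 0.00 over all genes. 1 of 10, *Apba2*, passed the test in limma (log2 fold change -0.34, SE 0.08, FDR = 0.0461), where 0.338% of all genes were called lower. *Adgrb1* (-0.33, SE 0.08, FDR = 0.0562), *Gprin1* (-0.32, SE 0.09, FDR = 0.0779) and *Cacna1g* (-0.25, SE 0.07, FDR = 0.104) did not. The groups did not overlap for *Apba2*, *Gprin1* and *Cacna1g*, each lower, compared with 3.44% of all genes. The call of *Apba2* was lost on omission of any of the 8 libraries (FDR = 0.0544 to 0.155), while *Gprin1* was called without WT replicate 3 (FDR = 0.0384) or *Kat6b-/-* replicate 2 (FDR = 0.0444). In litter 3482 the *Kat6b-/-* embryo had 81.6% of the *Apba2* level of its WT littermate and 42.1% of the *Dcx* level. Whether *Kat6a-/-* and *Kat6b-/-* embryos differed in these genes was not tested.

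A substitution in KAT6A or in KAT6B alone gave no call among the members. In *Kat6aE/E* embryos compared with WT, limma called 0 of 10 members where 0.275% of all genes were called in either direction, edgeR and DESeq2 called 0, and 1 member, *Dcx*, had an unadjusted p below 0.05, as did 10% of all genes. *Dcx* was higher by a log2 fold change of 0.40 (SE 0.14, FDR = 0.304), and 2 of its 4 *Kat6aE/E* embryos were above all WT embryos. The 95% intervals of the signalling genes ran from -0.29 to 0.02 for *Apba2*, from -0.27 to 0.03 for *Adgrb1*, from -0.27 to 0.06 for *Gprin1* and from -0.16 to 0.11 for *Cacna1g*. In litter 683 the *Kat6aE/E* embryo had 97.5% of the *Apba2* level of its WT littermate and 81.2% of the *Gprin1* level. The shares were 98.2% for *Cacna1g*, 92.75% for *Adgrb1* and 148.5% for *Dcx*. In *Kat6bE/E* embryos compared with WT, limma called 0 of 10 members and 0% of all genes, edgeR and DESeq2 called 0, and *Adgrb1* alone had an unadjusted p below 0.05 (log2 fold change -0.22, SE 0.08, FDR = 0.998), as did 4.41% of all genes. The intervals there were -0.30 to 0.02 for *Apba2*, -0.26 to 0.08 for *Gprin1* and -0.25 to 0.03 for *Cacna1g*.

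With both substitutions, the 4 signalling genes fell in *Kat6aE/E;Kat6bE/E* embryos compared with WT, and none of the other members passed the test. The log2 fold change was -0.45 for *Apba2* (SE 0.08, FDR = 0.00498), -0.44 for *Gprin1* (SE 0.09, FDR = 0.00823), -0.34 for *Adgrb1* (SE 0.08, FDR = 0.0242) and -0.28 for *Cacna1g* (SE 0.07, FDR = 0.0287) in limma. That makes 4 of 10 members, where 1.57% of all genes were called lower. This comparison shares the WT libraries that guided the choice of genes. *Apba2*, *Gprin1* and *Cacna1g* did not overlap WT, as was the case for 3.94% of all genes. Among the others, *Stmn3* was at -0.42 (SE 0.21, FDR = 0.287), *Elavl3* at -0.31 (SE 0.15, FDR = 0.305), *Dcx* at -0.27 (SE 0.16, FDR = 0.378) and *Mapt* at 0.09 (SE 0.17, FDR = 0.827). The SE of these and the remaining uncalled members (0.12 to 0.21) exceeded that of the signalling genes (0.07 to 0.09), and the interval of *Stmn3* ran from -0.85 to 0.01. *Apba2* and *Gprin1* were called on omission of any of the 8 libraries (FDR of at most 0.0233 and 0.0441). *Adgrb1* was not called without WT replicate 1, 2 or 3 or *Kat6aE/E;Kat6bE/E* replicate 4 (FDR = 0.05275 to 0.0808), and *Cacna1g* was not called without WT replicate 2 or 3 or *Kat6aE/E;Kat6bE/E* replicate 2 or 3 (FDR = 0.0622 to 0.0871). *Kat6aE/E;Kat6bE/E* replicate 2 had a leverage of 0.88 in the model and a weight of 15.3% among its 4 libraries. Without surrogate variables the values were similar (-0.46 for *Apba2* and -0.50 for *Gprin1*), but 0 members and 0 of the 14183 genes were called (FDR = 0.121 and 0.153).

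**Figure D2:**
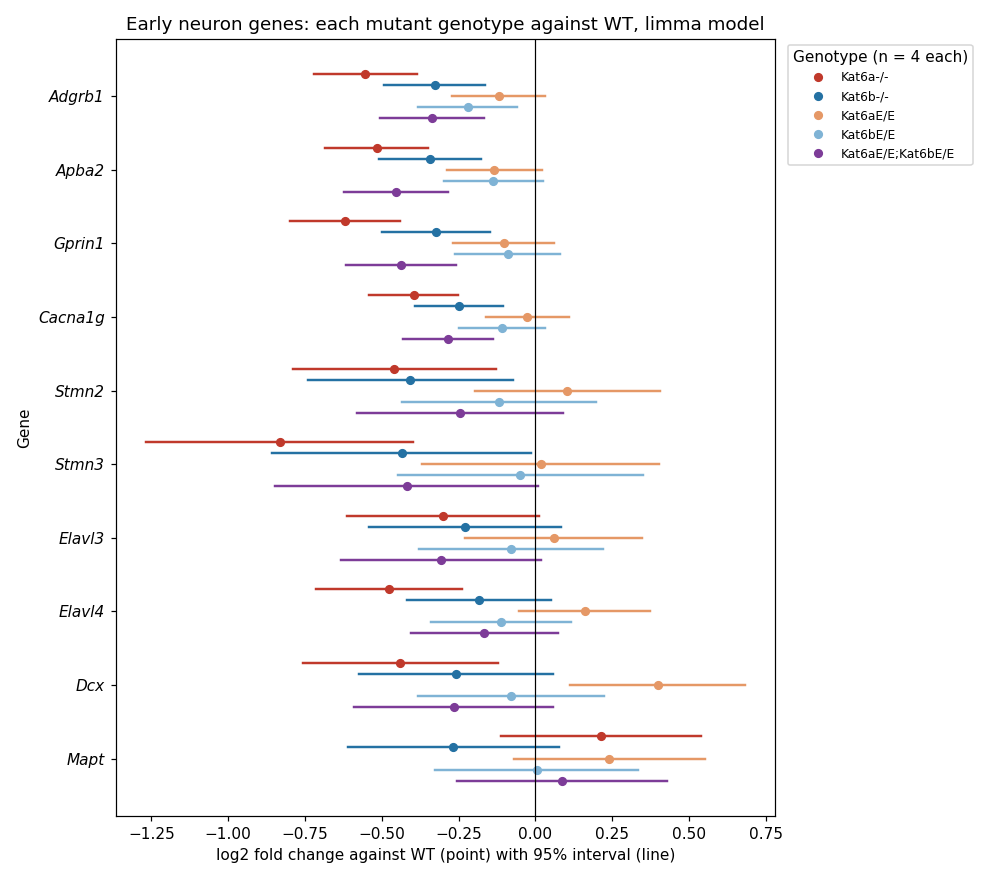
Fitted log2 fold change of each early neuron gene in the 5 mutant genotypes against WT (points) with its 95% interval (lines); limma, n = 4 embryos per genotype, the WT libraries being shared by all 5. Intervals of the 4 signalling genes (top) lie below 0 in *Kat6a-/-*, *Kat6b-/-* and *Kat6aE/E;Kat6bE/E* embryos and are narrower than those of the cytoskeletal and RNA-binding genes. Counting all 10 members, 8 intervals lie below 0 in *Kat6a-/-*, 6 in *Kat6b-/-* and 4 in *Kat6aE/E;Kat6bE/E* embryos.

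Comparisons of mutant genotypes with each other address whether a protein without its acetyltransferase activity differs from no protein. No litter held embryos of different mutant genotypes, so in all of them differences between genotypes and between litters cannot be told apart. Of the 10 members, 7 were called higher in *Kat6aE/E* than in *Kat6a-/-* embryos, where 0.973% of all genes were, but this comparison shares the *Kat6a-/-* libraries that guided the choice of genes. The log2 difference was 0.52 for *Gprin1* (SE 0.09, FDR = 0.00307), 0.64 for *Elavl4* (SE 0.12, FDR = 0.00696), 0.84 for *Dcx* (SE 0.15, FDR = 0.00718), 0.43 for *Adgrb1* (SE 0.08, FDR = 0.00857), 0.37 for *Cacna1g* (SE 0.07, FDR = 0.00866), 0.38 for *Apba2* (SE 0.08, FDR = 0.0188) and 0.85 for *Stmn3* (SE 0.21, FDR = 0.0428). *Mapt* was at 0.03, with an interval from -0.29 to 0.35. *Apba2*, *Gprin1*, *Cacna1g* and *Elavl4* did not overlap between these genotypes, as for 4.1% of all genes. *Apba2* was not called without *Kat6a-/-* replicate 3 (FDR = 0.0549), *Cacna1g* not without *Kat6a-/-* replicate 4 (FDR = 0.0676), and *Stmn3* not without *Kat6a-/-* replicate 1, 3 or 4 or *Kat6aE/E* replicate 1 or 2 (FDR = 0.05365 to 0.114), while *Stmn2* was called without *Kat6aE/E* replicate 3 (FDR = 0.0118). Without surrogate variables 1 member, *Apba2*, was called (log2 difference 0.46, FDR = 0.0406).

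The 4 signalling genes were also lower in *Kat6a-/-* than in *Kat6bE/E* embryos, from -0.53 for *Gprin1* (SE 0.09, FDR = 0.00395) to -0.29 for *Cacna1g* (SE 0.07, FDR = 0.0374), where 0.804% of all genes were called lower, and this comparison too shares the *Kat6a-/-* libraries that guided the choice of genes. Only *Gprin1* was called on omission of any of the 8 libraries, while the calls of *Adgrb1*, *Apba2* or *Cacna1g* were lost (FDR = 0.0573 to 0.204). The count was 2 without *Kat6a-/-* replicate 1 or 4 or *Kat6bE/E* replicate 2 or 3, 1 without *Kat6a-/-* replicate 3 or *Kat6bE/E* replicate 4, and 0 without surrogate variables. Without *Kat6bE/E* replicate 1, *Adgrb1* was lost and *Stmn3* was called (FDR = 0.0177), as it was without *Kat6a-/-* replicate 2 (FDR = 0.0257). *Kat6aE/E;Kat6bE/E* and *Kat6a-/-* embryos were not separated: limma called 0 of 10 members and 0.00705% of all genes, edgeR and DESeq2 called 0 members, and *Adgrb1* (0.22, SE 0.09, FDR = 0.401) and *Elavl4* (0.31, SE 0.12, FDR = 0.386) had an unadjusted p below 0.05, as did 10.4% of all genes. The interval of that difference was -0.12 to 0.24 for *Apba2* and -0.01 to 0.38 for *Gprin1*.

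The next 3 comparisons contrast no WT and no *Kat6a-/-* embryos. Their surrogate variables and spread were still estimated from all 24 libraries, and the members were chosen with earlier results of these data known. They are thus not independent of that choice, and the members correlated with one another, as given below. Between *Kat6aE/E;Kat6bE/E* and *Kat6aE/E* embryos, all 10 members were at negative values, with a median of -0.33 beside 0.00 over all genes. None was called in limma or edgeR, where 0.0212% of all genes were called lower, while DESeq2 called *Dcx* (-0.64, FDR = 0.0113). At an unadjusted p below 0.05, 7 of the 10 were lower, where 4.86% of all genes were. The limma values were -0.66 for *Dcx* (SE 0.16, FDR = 0.125), -0.33 for *Gprin1* (SE 0.09, FDR = 0.163), -0.32 for *Apba2* (SE 0.09, FDR = 0.163) and -0.26 for *Cacna1g* (SE 0.08, FDR = 0.191). *Apba2* (27.6 to 38.92 against 38.94 to 46.2 CPM), *Gprin1* (14.8 to 18.4 against 21.5 to 27.2 CPM) and *Cacna1g* (33.2 to 43.2 against 43.7 to 51.4 CPM) did not overlap, as for 2.57% of all genes. *Dcx* was called without *Kat6aE/E* replicate 3 (-0.80, FDR = 0.0196), and 6 members were called with 2 surrogate variables, where 182 of all 14183 genes were called in either direction.

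Between *Kat6bE/E* and *Kat6b-/-* embryos limma called 0 of 10 members and 0.0353% of all genes, and edgeR and DESeq2 called 0. All 10 fitted values were positive, with a median of 0.19, and *Gprin1* (0.23, SE 0.09, FDR = 0.431) and *Apba2* (0.21, SE 0.08, FDR = 0.485) had an unadjusted p below 0.05, as did 8.83% of all genes. *Apba2* (37.5 to 44.7 CPM in *Kat6bE/E* and 30.5 to 37.0 CPM in *Kat6b-/-* embryos) and *Stmn3* (6.25 to 8.13 and 2.93 to 5.73 CPM) did not overlap, as for 1.89% of all genes. Between *Kat6aE/E* and *Kat6bE/E* embryos limma called 0 members and 0% of all genes, edgeR and DESeq2 called 0, and *Dcx* (0.48, SE 0.14, FDR = 0.706) and *Elavl4* (0.27, SE 0.11, FDR = 0.946) had an unadjusted p below 0.05, as did 4.94% of all genes. *Apba2* and *Gprin1* differed by 0.00 (interval -0.16 to 0.17) and -0.01 (interval -0.18 to 0.16). In a further test, which uses WT, the difference between the joint effect of both substitutions and the sum of their separate effects was called for 0 members and 0% of all genes in limma, edgeR and DESeq2. *Dcx* alone had an unadjusted p below 0.05 for it (-0.58, SE 0.22, FDR = 0.692), as did 6.42% of all genes, and *Gprin1* was at -0.24 (interval -0.50 to 0.01).

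Embryos of the same genotype differed more in the cytoskeletal and RNA-binding genes than in the signalling genes. The SD of log2 CPM around the genotype mean over the 24 embryos was 0.14 for *Apba2*, 0.17 for *Cacna1g*, 0.20 for *Gprin1* and 0.25 for *Adgrb1*. It was 0.335 for *Elavl4* and *Mapt*, 0.41 for *Stmn3*, 0.43 for *Elavl3*, 0.46 for *Stmn2* and 0.57 for *Dcx*. The members that varied most also had the steepest slopes on the general level of neuron genes. At a given correlation such a slope rises with the SD of the gene, so the rankings by SD and by slope are not independent. Against the mean log2 CPM of 30 other early neuron genes (among them *Tubb3*, *Ina*, *Nefm* and *Nrcam*), the within-genotype slope was 2.02 for *Dcx*, 1.66 for *Stmn2*, 1.61 for *Elavl3*, 1.26 for *Elavl4*, 1.24 for *Stmn3* and 1.06 for *Mapt*. It was 0.88 for *Adgrb1*, 0.63 for *Gprin1*, 0.37 for *Apba2* and 0.30 for *Cacna1g*. These are descriptions over 24 libraries, in which all genes share depth and scaling.

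That general level overlapped between WT and *Kat6a-/-* embryos. In WT embryos the mean of the 30 genes was 4.31, 4.43, 4.30 and 3.88 on the log2 CPM scale, and in *Kat6a-/-* embryos 3.62, 4.21, 3.88 and 3.80. The list had 32 genes in the counts, and its summed level includes *Myt1l* and *Miat*, which were not among the 30. That sum was 1330 ± 163 CPM in WT, 1007 ± 150 CPM in *Kat6a-/-* and 1060 ± 204 CPM in *Kat6b-/-* embryos. It was 1421 ± 243 CPM in *Kat6aE/E*, 1248 ± 146 CPM in *Kat6bE/E* and 1114 ± 206 CPM in *Kat6aE/E;Kat6bE/E* embryos. The level of other neuron genes thus moved with genotype beside the members. Its part in their changes was not tested beyond the model given next. The surrogate variables carried part of it: the first had r = -0.669 and the third r = 0.51 with the mean of the 30 genes over 24 libraries. In a model chosen after seeing the data, with that mean as covariate in place of surrogate variables, the *Kat6a-/-* difference from WT was -0.47 for *Apba2*, -0.43 for *Gprin1*, -0.41 for *Cacna1g* and -0.36 for *Adgrb1*. In the same model it was -0.43 for *Stmn3*, -0.20 for *Elavl4*, 0.07 for *Stmn2*, 0.09 for *Elavl3*, 0.21 for *Dcx* and 0.48 for *Mapt*. *Apba2* (FDR = 0.0165) and *Gprin1* (FDR = 0.0433) were called there. Since the covariate itself was lower in *Kat6a-/-* embryos, these values are differences relative to other neuron genes.

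**Figure D3:**
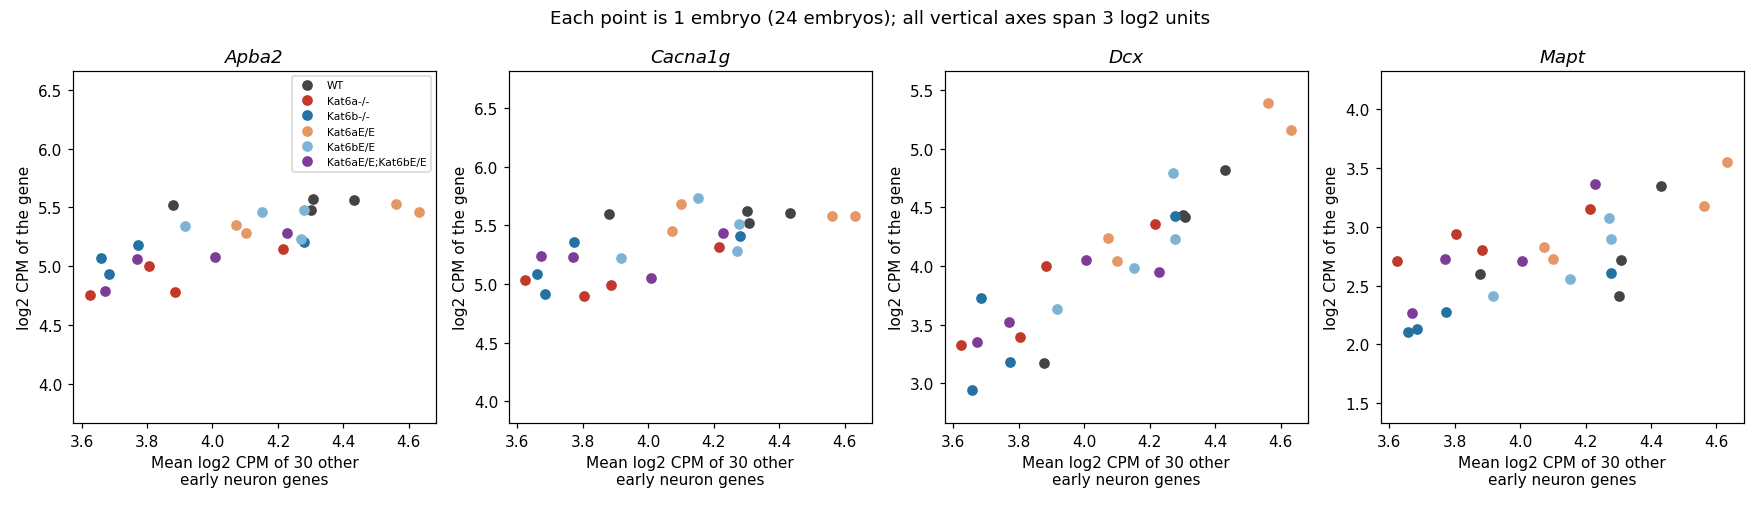
Log2 CPM of *Apba2*, *Cacna1g*, *Dcx* and *Mapt* in each of 24 embryos (points, by genotype) against the mean log2 CPM of 30 other early neuron genes in the same embryo; all vertical axes span 3 log2 units. *Dcx* climbs steeply along the axis (within-genotype slope 2.02), *Apba2* and *Cacna1g* little (0.37 and 0.30), and all WT embryos of *Apba2* lie above all *Kat6a-/-* embryos.

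Members correlated with one another over the 24 embryos. The median Pearson r of their log2 CPM was 0.837 over the 15 pairs of cytoskeletal and RNA-binding genes, 0.8575 over the 6 pairs of signalling genes and 0.7235 over the 24 pairs between the groups. For deviations from the genotype means the medians were 0.784, 0.6055 and 0.6695. Without removal of the genotype means, the r with the mean of 14 neural progenitor genes was 0.907 for *Adgrb1*, 0.89 for *Cacna1g*, 0.885 for *Apba2* and 0.827 for *Gprin1*, and among the others it ran from 0.409 for *Mapt* to 0.836 for *Elavl4*. For *Cacna1g* (0.693) and *Apba2* (0.752) the r with the 30 neuron genes was lower than that, while for *Elavl3* (0.959) and *Dcx* (0.925) it was higher. For deviations from the genotype means, the r with the progenitor genes was 0.812 for *Adgrb1*, 0.795 for *Apba2*, 0.748 for *Cacna1g* and 0.625 for *Gprin1*. Among the others it ran from 0.401 for *Stmn3* to 0.733 for *Elavl4*. The r of deviations with the neuron genes was higher for *Adgrb1* (0.901) and *Gprin1* (0.801) and lower for *Apba2* (0.654) and *Cacna1g* (0.438). The genes whose log2 CPM was most like the mean of the standardised members were *Celf3* (r = 0.961), *Ina* (r = 0.959), *Dpysl4* (r = 0.955), *Lrrn1* (r = 0.951) and *Vim* (r = 0.945).

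Other genes of neuron formation show where the members stood. The median over the 30 other early neuron genes tested was -0.25 in *Kat6a-/-* embryos compared with WT, beside 0.00 over all genes. Of the 30, 5 fell, where 1.38% of all genes were called lower. These were the neurofilament-related *Ina* (-0.61, SE 0.16, FDR = 0.0430), the adhesion molecule *Nrcam* (-0.42, SE 0.11, FDR = 0.0395), the RNA-binding *Celf3* (-0.65, SE 0.15, FDR = 0.0190), the kinesin *Kif5c* (-0.24, SE 0.06, FDR = 0.0334) and the complexin *Cplx2* (-0.25, SE 0.07, FDR = 0.0479). That count was 0 without WT replicate 1, 2 or 3 or *Kat6a-/-* replicate 1 or 3, 3 without *Kat6a-/-* replicate 4 and 0 without surrogate variables, and with DESeq2 it was 8. In *Kat6b-/-* embryos 1 of 30 fell, where 0.338% of all genes were called lower, namely the neuronal tubulin *Tubb3* (-0.41, SE 0.08, FDR = 0.0316). The count there was 1 without *Kat6b-/-* replicate 1 and 0 on omission of any other of the 8 libraries or without surrogate variables. In *Kat6aE/E;Kat6bE/E* embryos 2 of 30 fell, where 1.57% of all genes were called lower, namely *Cplx2* (-0.31, SE 0.07, FDR = 0.0160) and the adhesion molecule *L1cam* (-0.37, SE 0.10, FDR = 0.0369). The count there was 0 without WT replicate 2, 1 without WT replicate 1 or 3 or *Kat6aE/E;Kat6bE/E* replicate 3 or 4, 2 without WT replicate 4 or *Kat6aE/E;Kat6bE/E* replicate 1, 3 without *Kat6aE/E;Kat6bE/E* replicate 2, and 0 without surrogate variables. In *Kat6aE/E* and *Kat6bE/E* embryos limma called 0 of 30, with 1 and 0 at an unadjusted p below 0.05.

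Of 14 neural progenitor genes, with a median of -0.26, 9 were called lower in *Kat6a-/-* embryos compared with WT, where 1.38% of all genes were. The 9 included the intermediate filament gene *Nes* (-0.53, SE 0.08, FDR = 0.00246), the SoxB1 factors *Sox3* (-0.47, SE 0.08, FDR = 0.00590) and *Sox2* (-0.33, SE 0.07, FDR = 0.0151), and the receptor *Notch1* (-0.31, SE 0.06, FDR = 0.00412). The summed level of the 14 genes was 1893 to 2265 CPM in *Kat6a-/-* embryos and 2406 to 2665 CPM in WT, with no overlap. In *Kat6b-/-* embryos 1 of 14 fell, *Vim* (-0.19, SE 0.04, FDR = 0.0316). In *Kat6aE/E;Kat6bE/E* embryos *Notch1* (-0.27, SE 0.06, FDR = 0.0144) and the RNA-binding *Msi1* (-0.19, SE 0.05, FDR = 0.0287) fell while the Notch target *Hes1* rose (0.34, SE 0.07, FDR = 0.0100), where 1.34% of all genes were called higher. The part that these progenitor genes had in the values of the members was not tested.

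Of 13 proneural and Notch genes, among them *Neurog1*, a factor that starts neurogenesis, the Notch effector *Hes5* and the Notch ligands *Dll1* and *Dll3*, 0 were called by limma in *Kat6a-/-*, *Kat6b-/-* or *Kat6aE/E;Kat6bE/E* embryos compared with WT, with medians of -0.21, -0.16 and -0.18. At an unadjusted p below 0.05 there were 5 of 13 in *Kat6a-/-* (4 lower and 1 higher), where 16.9% of all genes were, 1 in *Kat6b-/-* (12.1% of all genes) and 3 in *Kat6aE/E;Kat6bE/E* embryos (18.2% of all genes). Of 20 paralogues of the members, 0 fell, and *Cacna1h*, which encodes another T-type channel, rose in *Kat6a-/-* embryos (0.38, SE 0.08, FDR = 0.00896). The values of *Cacna1h* overlapped (20.3 to 30.8 against 21.2 to 26.0 CPM).

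**Figure D4:**
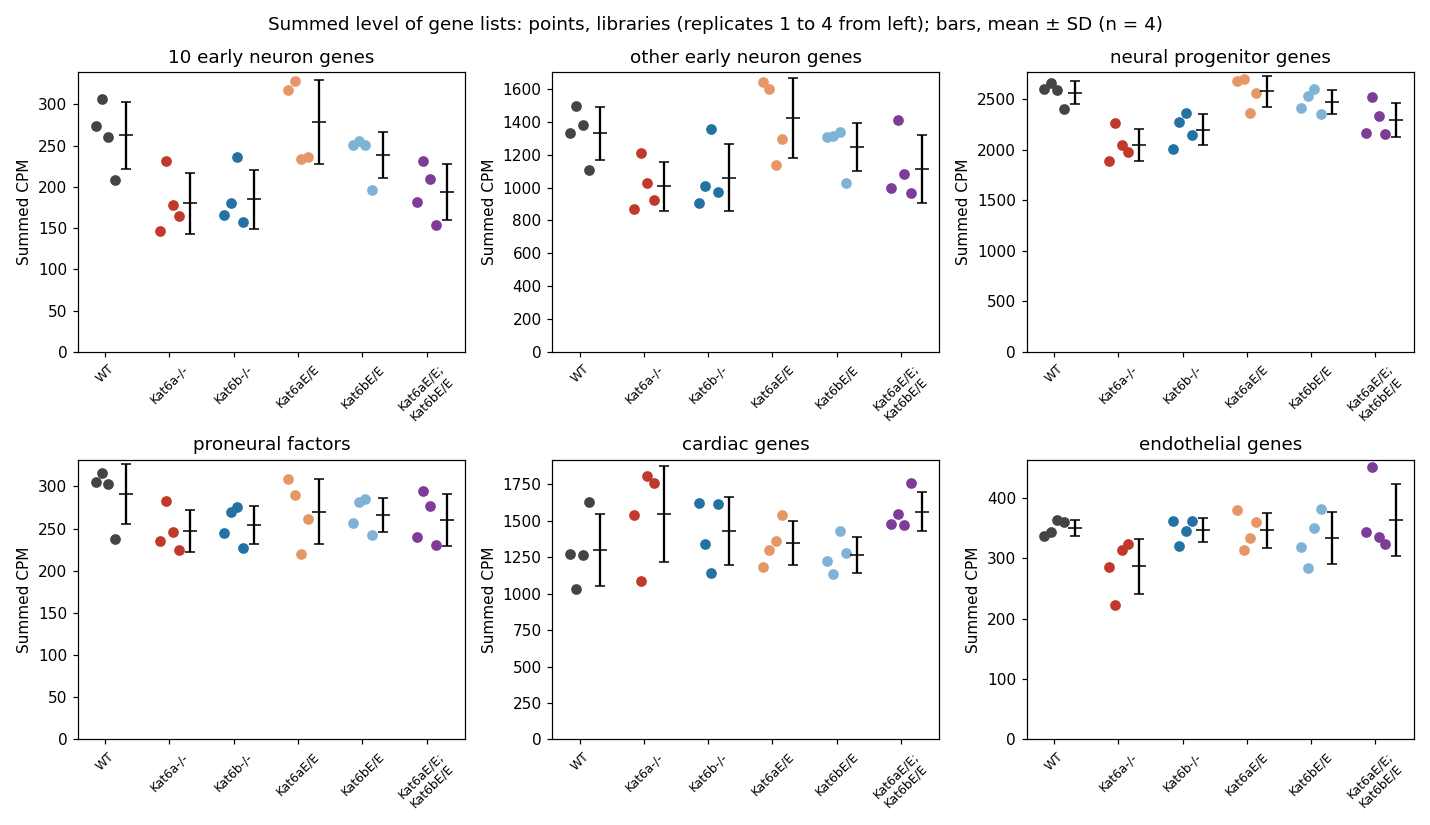
Summed CPM of the 10 members and of 5 marker lists in each of 24 embryos (points, replicates 1 to 4 from left to right) with mean ± SD (n = 4 per genotype), on linear axes from 0. Progenitor genes in *Kat6a-/-* embryos (1893 to 2265 CPM) lie below WT (2406 to 2665 CPM), whereas the heart genes of the same groups overlap (1086 to 1807 and 1031 to 1629 CPM).

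Markers of other tissues gave a mixed picture beside these results. In *Kat6a-/-* embryos 2 of 10 heart genes rose, where 1.26% of all genes were called higher, *Myl2* (0.60, SE 0.15, FDR = 0.0459) and *Tnni1* (0.38, SE 0.09, FDR = 0.0277), and in *Kat6aE/E;Kat6bE/E* embryos 1 did, *Tnnt2* (0.36, SE 0.09, FDR = 0.0415). Of 8 primitive erythroid, 8 neural crest, 6 endothelial and 4 tested macrophage and glial genes, limma called 0 in *Kat6a-/-* embryos compared with WT. At an unadjusted p below 0.05, 0, 2, 5 and 2 of them differed, where 16.9% of all genes did, the 5 endothelial genes being lower. The summed level of the endothelial genes was 223 to 324 CPM in *Kat6a-/-* embryos and 336 to 364 CPM in WT. That of the 7 macrophage and glial genes was 8.50 to 14.2 CPM in *Kat6a-/-* and 5.41 to 8.49 CPM in WT embryos. The part of tissue composition in the changes of the members was not tested.

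The members were also counted in the 16 libraries of the same study from E14.5 fetal liver LSK cells, sorted blood stem and progenitor cells. Whether the reads there are expression in these cells or a background of the counting was not tested. The median count was 0 for *Adgrb1*, *Gprin1*, *Stmn2*, *Stmn3*, *Elavl3* and *Dcx*, 0.5 for *Apba2*, 6 for *Cacna1g*, 23.5 for *Mapt* and 24.5 for *Elavl4*. The highest LSK level was at most 2.25 CPM for every member except *Mapt*. In 2 *Kat6aE/E;Kat6bE/E* LSK libraries *Mapt* was at 5.44 and 6.83 CPM, above the lowest embryo (4.30 CPM), and in the WT LSK libraries it was at most 1.87 CPM.

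In the mouse genome (GRCm39) the members lie on 9 chromosomes, with *Cacna1g* (94299217 to 94365230) and *Mapt* (104122024 to 104222946) both on chromosome 11. *Apba2* lies on chromosome 7 (64151003 to 64404333, plus strand), *Gprin1* on chromosome 13 (54884484 to 54897816, minus strand) and *Adgrb1* on chromosome 15 (74388044 to 74461314, plus strand). The libraries did not mark strand. Exons of other genes, mostly antisense long noncoding RNAs, covered at most 3.79% of the exon bases of a member, and at most 2.79% of the 60-base stretches of its transcripts occurred in another gene, so few reads could have been shared.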

How the data were processed

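RNA from whole E9.5 embryos was made into TruSeq v2 libraries, which do not mark strand, and sequenced as read pairs. The authors aligned the pairs to mm39 with Rsubread and deposited, for each embryo, the whole-number count of pairs per RefSeq gene from featureCounts together with a gene length. Here the counts of the 24 embryos were analysed in R 4.3.3. Of 26411 genes, 26359 matched the RefSeq gene table, 21030 were protein-coding, and 14183 remained after Y-linked genes were left out and edgeR's filterByExpr was applied. Counts were TMM-scaled (edgeR 4.0.16) and fitted with limma 3.58.1 (voomLmFit, genotype, 4 surrogate variables from wsva, litter as random block with a correlation of 0.107, robust empirical Bayes), following the study's design. FDR is Benjamini-Hochberg adjusted over the 14183 genes and called below 0.05. All genotypes share 1 estimate of the spread.

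The members and gene lists (paralogues, other early neuron, neural progenitor, proneural and Notch, cardiac, primitive erythroid, neural crest, endothelial, macrophage and glial genes) were chosen with earlier results of these data known. Genes named beside the members are list genes with FDR below 0.05 in a comparison described, the defining markers of tissues, and the 5 genes with the highest Pearson r with the members. Not tested, for low counts or gene type, were *Gprin3*, *Dclk3*, *Myt1l*, *Miat*, *C1qa*, *Gfap* and *Tyrobp*, and *Prrxl1* had no match. A further list, of neuron subtype genes, is not reported here. Alternatives were other numbers of surrogate variables, no litter block, edgeR's quasi-likelihood test, DESeq2 1.42.0, its size factors, no filter, all gene types, the replicate number as a block, only the libraries compared, and omission of each library. Replicates were separate embryos. Groups share replicate numbers from 1 to 4. The correlation of deviations between same-numbered embryos had a median of 0.048 over 60 pairs and exceeded 0.1 in 17. Between differently numbered embryos it had a median of -0.018 over 180 pairs and exceeded 0.1 in 34. Same-numbered embryos were thus slightly more alike. The numbers were not taken as pairs in the reported model, and a block on them was fitted as an alternative. Promoter sequences and CG counts came from RefSeq on GRCm38.p6, and gene positions, exon overlaps and shared transcript sequence from GENCODE on GRCm39. Depth limits the members at the low end, since *Stmn3* and *Mapt* each rested on as few as 36 counts in a library.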

Additional observations from a re-analysis of the deposited data

Results flagged for a closer look

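In 4 of 60 groups of 4 embryos (10 members in 6 genotypes), 1 embryo lay far from the other 3, by a gap to its nearest neighbour above Dixon's critical value at the 95% level. Chance gives about 1 in 20 such groups. *Kat6a-/-* replicate 2 was flagged for *Gprin1* (21.3 CPM against 13.6 to 14.6 CPM in the others) and for *Stmn3* (5.64 CPM against 3.18 to 3.44 CPM). It was the highest of the *Kat6a-/-* embryos in each of the 10 members, and the only one that shared a litter with a WT embryo. *Kat6bE/E* replicate 4 was flagged for *Elavl3* (24.7 CPM against 35.6 to 36.8 CPM), and *Kat6b-/-* replicate 3 for *Elavl4* (29.6 CPM against 17.0 to 17.5 CPM). Without *Kat6a-/-* replicate 2, 6 members were called against WT, as with it.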

How the results depend on the processing

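Over 12 comparisons and 10 members, 110 of 2600 refitted values changed sign, and 0 of these belonged to a value called in the reported limma model. Calls depended most on the surrogate variables. Without them 3 members were called in *Kat6a-/-* embryos compared with WT (6 in the reported model), 0 in *Kat6b-/-* (1), 0 in *Kat6aE/E;Kat6bE/E* (4), 1 between *Kat6aE/E* and *Kat6a-/-* (7) and 0 between *Kat6a-/-* and *Kat6bE/E* embryos (4). With only the libraries compared, which also has no surrogate variables, these counts were 3, 0, 0, 0 and 0. With the mean of 30 other early neuron genes as covariate, chosen after seeing the data, they were 2, 0, 0, 0 and 0. edgeR without surrogate variables called 0 in *Kat6b-/-*, 0 in *Kat6aE/E;Kat6bE/E*, 3 between *Kat6aE/E* and *Kat6a-/-* and 1 between *Kat6a-/-* and *Kat6bE/E* embryos. In *Kat6b-/-* embryos compared with WT the count was 0 with 2 surrogate variables or DESeq2 size factors, 2 without a filter, 3 with DESeq2, and 4 with 6 surrogate variables or all gene types. With 2 surrogate variables it was 2 between *Kat6a-/-* and *Kat6bE/E* embryos. Between *Kat6aE/E;Kat6bE/E* and *Kat6aE/E* embryos, where limma called 0, it was 6 with 2 surrogate variables, 3 with 6, 2 without a filter and 1 with DESeq2. The cause was not tested. With the replicate number as a block, 4 members were called in *Kat6b-/-* embryos compared with WT, 2 between *Kat6a-/-* and *Kat6bE/E* and 1 between *Kat6aE/E;Kat6bE/E* and *Kat6aE/E* embryos. The block gave 5 in *Kat6a-/-*, 4 in *Kat6aE/E;Kat6bE/E* and 7 between *Kat6aE/E* and *Kat6a-/-* embryos, and 0 where limma called 0 in the remaining comparisons. On omission of single libraries the count ranged from 4 to 6 in *Kat6a-/-*, 0 to 1 in *Kat6b-/-* and 2 to 4 in *Kat6aE/E;Kat6bE/E* embryos compared with WT, from 5 to 8 between *Kat6aE/E* and *Kat6a-/-*, from 1 to 5 between *Kat6a-/-* and *Kat6bE/E* and from 0 to 1 between *Kat6aE/E;Kat6bE/E* and *Kat6aE/E* embryos. Of the 2600 refitted values, 2432 kept their side of the threshold, 129 lost a call and 39 gained one. The counts for the lists of genes other than early neuron genes were not refitted under these alternatives.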
